A study of Drosophila melanogaster with 12 samples.

Results

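The genes examined were those encoding cytosolic ribosomal proteins, taken as every probe set of the array whose single annotated gene has a symbol starting with RpL (large subunit) or RpS (small subunit). The rule gave 37 genes, 22 of the large and 15 of the small subunit, of 10843 genes with a probe set of their own on the array, and each of the 37 was read by 1 probe set. RefSeq lists 92 Drosophila melanogaster genes with such a symbol, and 37 of those 92 had a named probe set of their own here. Another 2 probe sets named several genes with such a symbol among them and were left out of the 37. The symbols also take in paralogues that other organisms' work places among the factors that build ribosomes. The study purified cells from the ovaries of adult females and profiled their total RNA on 12 Affymetrix GeneChips, 3 described as biological repeats in each of 4 groups. The slbo migratory group held mCD8-GFP-expressing cells of slbo-Gal4,slboe7b/UAS-mCD8-GFP,slboLy6 females, and the slbo nonmigratory group held the cells of the same genotype that did not express mCD8-GFP. The WT migratory and WT nonmigratory groups were the matching fractions of females labelled slbo-Gal4, UAS-mCD8-GFP/+. All 4 groups thus carried the slbo-Gal4 driver and the UAS-mCD8-GFP reporter, and the fractions were parted with magnetic beads that carry an antibody to mouse CD8. Females were 2 to 7 days old, except that 1 slbo nonmigratory array has no age or tissue label. Another slbo nonmigratory array has no genotype label and was placed by its title.

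A ribosome is built from ribosomal RNA and a set of small proteins that are made in near-equal numbers. The large subunit joins amino acids and carries a flexible stalk that binds elongation factors, and the small subunit reads the messenger RNA. Assembly begins in the nucleolus, where RNA polymerase I makes the ribosomal RNA and a large group of assembly factors folds it. In flies, losing 1 copy of many ribosomal protein genes gives the Minute phenotype of slow growth and thin bristles, and several of these genes have a second copy used mainly in the germ line. In the ovary, slbo encodes the C/EBP transcription factor that border cells need to move between the nurse cells. The driver slbo-Gal4 marks border cells and some other follicle cells, so the fraction called migratory is defined by that driver and not by movement itself. The fractions were compared to profile migratory cells, and the genotypes to set cells carrying slbo alleles against WT cells.

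Each value is a MAS5 signal, a linear measure of brightness that the authors had scaled to the same trimmed mean on every array (150.026 to 150.030). Signals were compared on the scale log2(signal + 7.50), so a difference of 1 is a 2-fold change for all but the dimmest genes. A probe set was tested if it was brighter than the 40th percentile of its array on at least 3 arrays, which 8978 of 12367 features did. limma was fitted across all 8978 with 1 mean per group, and a feature is called where its Benjamini-Hochberg adjusted p is under 0.05. Of the 37 ribosomal protein genes 34 were tested, 20 of the large and 14 of the small subunit. The other 3 were RpL10Aa and RpL22-like, above that percentile on 0 arrays, and RpS19b, above it on 1. The number of arrays limits the precision: the median standard error over all features was 0.302 for a comparison of 2 groups. The slbo probe set itself averaged 43.6 ± 8.2 in slbo migratory cells and 213 ± 55.7 in WT migratory cells (SD, n = 3 each), so it was lower in slbo, as labelled. In nonmigratory cells it averaged 63.1 ± 38.2 in slbo and 126 ± 20.2 in WT (SD, n = 3 each). In bulk cells, less RNA of a gene in each cell and fewer cells that make it cannot be told apart.

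Of the 37 genes, 27 gave a signal above 1000 on each of the 12 arrays, 16 of the large and 11 of the small subunit. Their signals ran between 5955 and 22740.0, on arrays whose brightest probe sets read 21915 to 30832. Between 24 and 26 of the 27 were among the 100 brightest probe sets of each array. The limit of 1000 was chosen after the values were seen, and these 27 are called the bright ribosomal protein genes below. The other 10 were RpL10Aa, RpL22-like, RpL24-like, RpL37-2, RpL7-like, RpLP0-like, RpS10a, RpS19b, RpS28a and RpS29.

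RpLP0-like and RpL24-like were lower in migratory than in nonmigratory cells of both genotypes, and they were the only ribosomal protein genes called in either genotype's comparison of fractions. Neither is thought to be a part of the working ribosome. RpLP0-like (probe set 141230_at, chromosome arm 2R) is the fly relative of yeast Mrt4, which holds the place of the stalk protein P0 on the immature large subunit, and RpL24-like (149687_at, arm 3R) is the relative of yeast Rlp24, which holds the place of a large subunit protein in the same way. RpLP0-like read 194, 188 and 197 in slbo migratory cells, against 543, 488 and 419 in slbo nonmigratory cells. The WT arrays read 138, 283 and 237 in migratory cells and 507, 625 and 434 in nonmigratory cells. Every migratory array was below every nonmigratory array, and the 3 slbo migratory arrays lay close together.

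The difference in RpLP0-like was -1.29 in slbo (2.44-fold lower in migratory cells, adjusted p = 0.00267 with limma) and -1.27 in WT (SE 0.222, 2.41-fold lower, adjusted p = 0.00215 with limma), on the log2 scale. RpL24-like read 303, 235 and 308 in slbo migratory cells, against 547, 515 and 487 in slbo nonmigratory cells. In WT it read 221, 303 and 347 in migratory cells and 684, 688 and 439 in nonmigratory cells. Here too the fractions did not overlap in either genotype, and the WT nonmigratory array at 439 lay closest to the migratory ones. The log2 difference was -0.86 in slbo (1.82-fold lower, adjusted p = 0.0145 with limma) and -1.03 in WT (2.04-fold lower, adjusted p = 0.00433 with limma). Among all features, 5.20% were called lower and 3.72% higher in slbo migratory cells (8.92% in all), and 4.92% lower and 4.27% higher in WT migratory cells (9.19% in all). The slbo call of RpL24-like was lost without slbo migratory replicate 2, without slbo nonmigratory replicate 1, without slbo nonmigratory replicate 2 and without the intensity trend (adjusted p up to 0.0712 with limma), while RpLP0-like kept its calls in both genotypes under each alternative run. The difference between the genotypes' changes was -0.02 for RpLP0-like (SE 0.314, adjusted p = 0.994 with limma) and 0.17 for RpL24-like (adjusted p = 0.943), so no difference between genotypes was detectable. Over the 12 arrays the deviations of RpLP0-like and RpL24-like from their means had r = 0.955, a description of arrays that share the split into fractions.

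**Figure D1:**
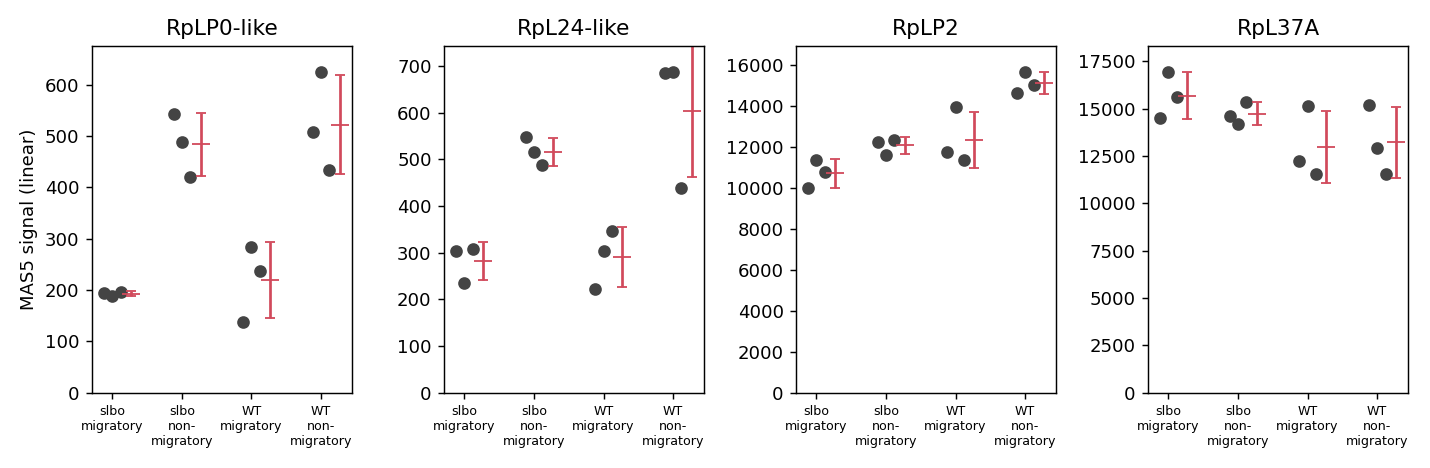
MAS5 signal (linear scale, from 0) of RpLP0-like, RpL24-like, RpLP2 and RpL37A in each group, with 1 point per array and the mean and SD of 3 arrays beside the points in red. RpLP0-like and RpL24-like are lower in both migratory groups than in either nonmigratory group, RpLP2 is highest in WT nonmigratory cells, and the slbo arrays of RpL37A lie in the upper part of its range.

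RpL7-like, the relative of yeast Rlp7, another nucleolar factor of the large subunit, did not pass the test in either genotype. Its signals were 366, 415 and 382 in slbo migratory cells against 366, 358 and 397 in slbo nonmigratory cells. They were 265, 331 and 417 in WT migratory cells against 427, 490.2 and 393 in WT nonmigratory cells. The slbo fractions lay on top of each other, and in WT the highest migratory array overlapped the lowest nonmigratory one. Its log2 difference was 0.05 in slbo (adjusted p = 0.900 with limma) and -0.38 in WT (adjusted p = 0.179).

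No structural ribosomal protein gene was called between the fractions within either genotype, and the lowest adjusted p of a bright gene was 0.0583 (limma, in WT). The 27 bright genes all had a negative log2 difference in WT migratory against WT nonmigratory cells, between -0.35 and -0.03 with a median of -0.22. In slbo, 17 of the 27 were negative and the median was -0.04. Over all 37 genes the median was -0.04 in slbo, with 22 negative, and -0.24 in WT, with 35 negative. The median of all tested features was 0.03 in slbo and 0.01 in WT. Counted by array, 6 of the 34 tested genes were lower and 1 (RpL37-2) was higher in slbo migratory than in slbo nonmigratory cells with no overlap, where 14.8% and 15.0% of all features were. In WT 12 of 34 were lower with no overlap and 0 were higher, against 12.8% and 12.3% of all features. With quantile normalization, which forces the signals of all arrays into 1 distribution, the bright genes' WT median was -0.03 with 16 of 27 negative, and 7 of 34 genes were lower in WT migratory cells without overlap, against 12.9% of all features. Because the bright genes fill many of the top ranks of each array, such scaling takes out much of any shift they share. It therefore cannot decide whether such a shift was present, here or in the comparisons below.

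RpS20, a protein of the small subunit's head, had the largest WT difference between the fractions of any bright gene. It read 16084, 20247 and 15423 in WT migratory cells and 21849, 22740.0 and 21006 in WT nonmigratory cells, with no overlap and a log2 difference of -0.35 (adjusted p = 0.0583 with limma). In slbo it read 15797, 17805 and 18331 in migratory cells and 16994, 17469 and 18747 in nonmigratory cells, a difference of -0.04 (adjusted p = 0.891). The second WT migratory array stood far above the other two and near the nonmigratory range. RpL32, also known as rp49 and often used as a reference gene for fly expression assays, read 12661, 15451 and 12561 in WT migratory cells and 17296, 16410.5 and 16523 in WT nonmigratory cells (-0.31, adjusted p = 0.0830 with limma). In slbo its signals were 12543, 14869 and 15168 in migratory cells and 13774, 13422 and 14428 in nonmigratory cells (0.03, adjusted p = 0.915). RpL32 thus separated the WT fractions without overlap and did not separate the slbo fractions.

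**Figure D2:**
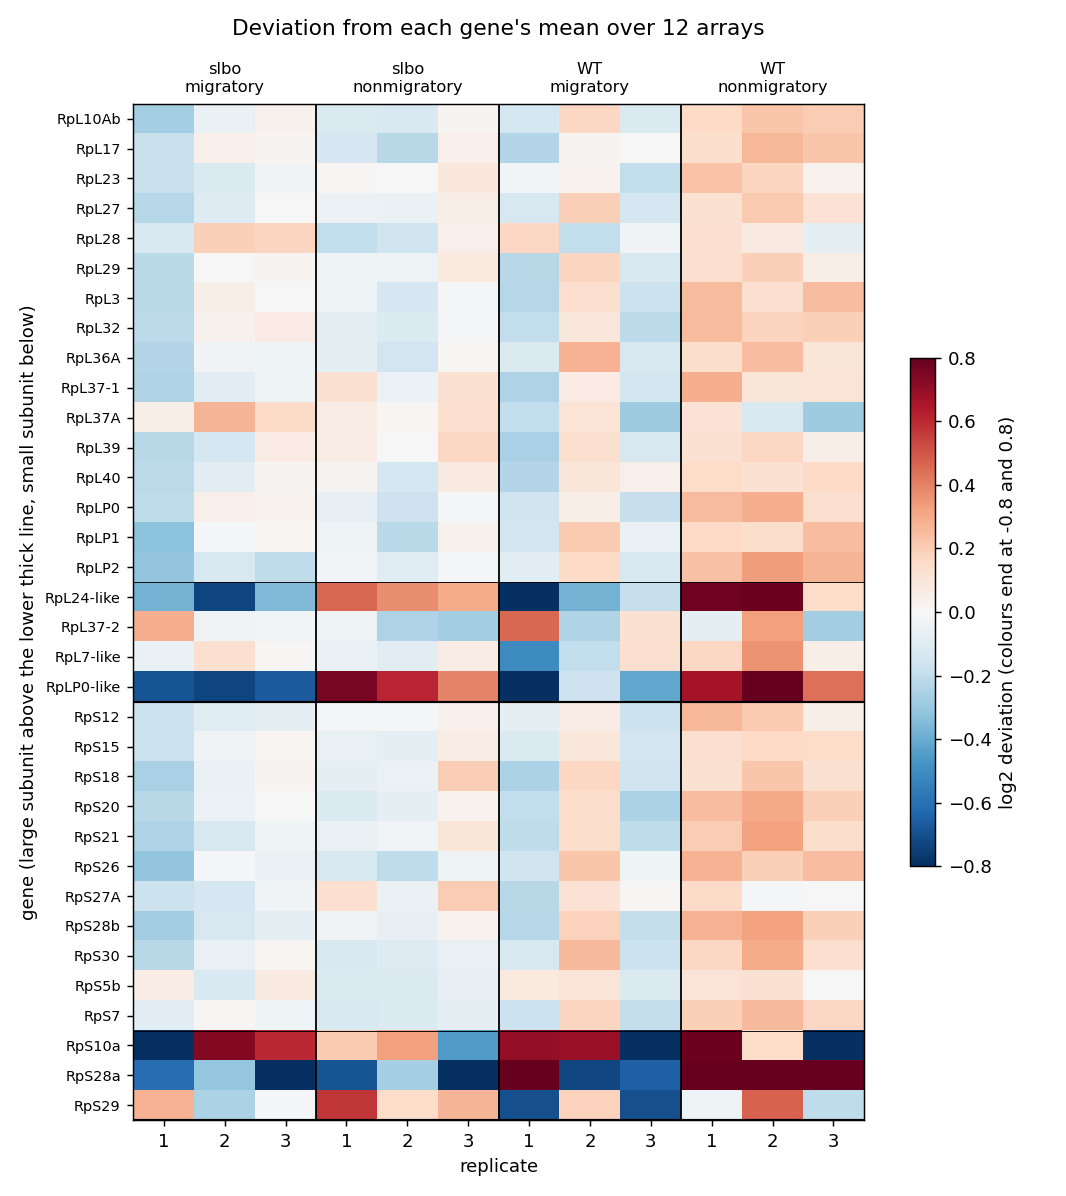
Deviation of each of the 34 tested ribosomal protein genes from its own mean over the 12 arrays, on the log2 scale, with 1 column per array and 1 row per gene. Thick lines part large from small subunit genes and thin lines part the bright genes from the others. Most bright genes are above their mean on all 3 WT nonmigratory arrays and on WT migratory replicate 2, while RpL24-like and RpLP0-like follow the fractions.

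WT migratory replicate 2 stood apart from its group. The median deviation of all 37 genes was -0.17, 0.12 and -0.16 on WT migratory replicates 1 to 3, and 0.17, 0.21 and 0.13 on the WT nonmigratory arrays. It was -0.22, -0.05 and 0.00 on the slbo migratory arrays and -0.05, -0.07 and 0.04 on the slbo nonmigratory arrays. The median of all other features stayed between -0.01 and 0.05 on every array. Of the 27 bright genes 23 had their highest signal on a WT nonmigratory array, 15 of them on replicate 2 of that group, and 14 had their lowest on slbo migratory replicate 1. Without WT migratory replicate 2 the WT comparison of fractions called 18 genes lower, 8 of the large and 10 of the small subunit and 15 of them bright, where 6.47% of all features were called lower. With quantile normalization the genes called in the WT fractions were RpLP0-like and RpL24-like again, where 5.08% of all features were called lower. With both changes at once, an alternative added after the data were seen, 3 genes were called lower: RpLP0-like, RpL24-like and RpS29. In that fit 5.80% of all features were called lower.

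Large and small subunit genes had similar medians. The median log2 difference between the fractions was -0.03 for large and -0.04 for small subunit genes in slbo, and -0.23 for large and -0.24 for small subunit genes in WT. On single arrays the median deviation of the large subunit genes minus that of the small subunit genes lay between -0.045 and 0.035 on all 12 arrays. By comparison, the large subunit median itself ran between -0.22 and 0.18 over the arrays and the small subunit median between -0.22 and 0.22. This difference of subunits within an array averaged 0.0234 ± 0.0151 in slbo migratory, 0.0018 ± 0.0367 in slbo nonmigratory, -0.0047 ± 0.0399 in WT migratory and -0.0269 ± 0.0115 in WT nonmigratory cells (SD, n = 3 each). It was above 0 on all 3 slbo migratory arrays and below 0 on all 3 WT nonmigratory arrays, beyond its own SD in both groups, and within it in the other 2. These differences between the subunits were not tested.

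**Figure D3:**
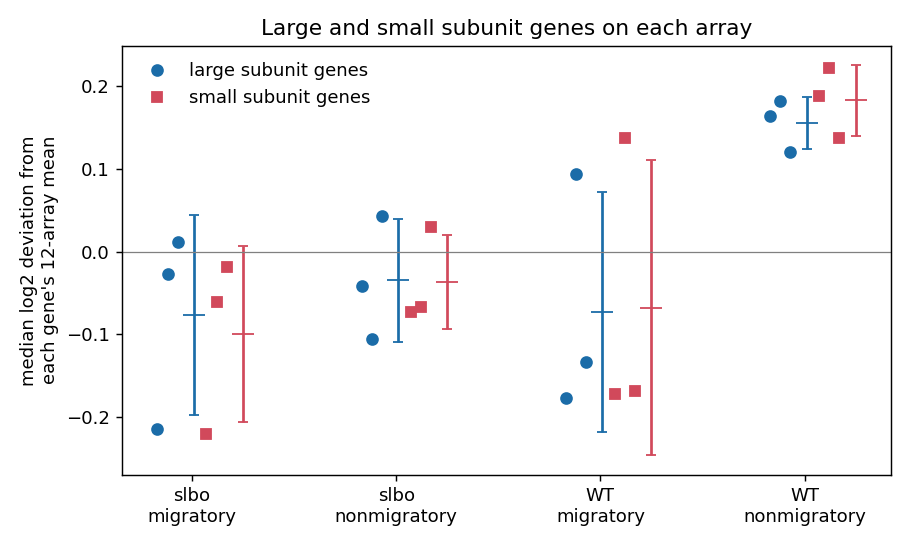
Median log2 deviation of the 22 large and 15 small subunit genes on each array, with the mean and SD of 3 arrays drawn beside each set of points. Both subunits are highest on the WT nonmigratory arrays, 1 WT migratory array lies far above the other 2, and large and small subunit points of an array differ by at most 0.045.

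The stalk proteins showed 1 called gene. RpLP2 (143326_at, arm 2R), an acidic phosphoprotein of the stalk, read 9982, 11375 and 10789 in slbo migratory cells and 12256, 11614 and 12344 in slbo nonmigratory cells. The WT arrays gave 11745, 13923 and 11382 in migratory cells and 14629.7, 15674 and 15042 in nonmigratory cells. Every slbo array was below every WT array of the same fraction, and every migratory array was below every nonmigratory array of the same genotype. In migratory cells the highest slbo array (11375) and the lowest WT array (11382) all but met. Averaged over both fractions RpLP2 was lower in slbo than in WT by a log2 difference of -0.26 (SE 0.068, adjusted p = 0.0484 with limma), where 1.51% of all features were called lower and 1.94% higher in slbo (3.45% in all). That call was lost without each of 11 of the 12 arrays in turn, and with quantile normalization. Averaged over both genotypes RpLP2 was lower in migratory cells by -0.23 (adjusted p = 0.0267 with limma), where 9.89% of all features were called lower.

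The other stalk proteins did not pass the test in any comparison. RpLP0, which anchors the stalk to the ribosome, read 12354, 14645 and 14502 in slbo migratory cells and 13634, 12708 and 14182 in slbo nonmigratory cells. In WT it read 12767, 14729 and 12542 in migratory cells and 16961, 17452 and 15580.4 in nonmigratory cells. WT nonmigratory cells were above the other groups without overlap. RpLP1, the partner of RpLP2 in the stalk, read 13530.3, 16802 and 17169 in slbo migratory cells and 16484, 14641 and 17382 in slbo nonmigratory cells. In WT RpLP1 read 15321, 19628 and 16302 in migratory cells and 18999.7, 18695 and 20104 in nonmigratory cells, and its highest WT migratory array lay within the nonmigratory range.

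Averaged over both genotypes, 5 ribosomal protein genes were called lower in migratory cells and 0 higher: RpLP0-like, RpL24-like, RpLP2, RpS28b and RpL37-1. Of all features 9.89% were called lower and 8.04% higher (17.9% in all), so 5 of 34 is close to the share over all features. RpS28b, the widely used copy of a small subunit protein, read 12182, 13504 and 13976 in slbo migratory cells and 14502, 14115 and 15088 in slbo nonmigratory cells. WT cells gave 12605, 16789.7 and 12973 in migratory cells and 17905, 18516 and 16857 in nonmigratory cells, so its fractions did not overlap in either genotype. The average difference was -0.24 (SE 0.078, adjusted p = 0.0442 with limma). RpL37-1, a zinc-binding protein of the large subunit, read 10766, 11994 and 12431 in slbo migratory cells and 13858, 12339.5 and 13838 in slbo nonmigratory cells. In WT it read 10726, 13335 and 11500.0 in migratory cells and 15609, 13601 and 13717 in nonmigratory cells, and its average difference was -0.23 (SE 0.075, adjusted p = 0.0454 with limma). RpL37-1 overlapped between the slbo fractions. Leaving out single arrays moved the 5 calls to as few as 2 (without WT migratory replicate 1 or 3, WT nonmigratory replicate 2, slbo migratory replicate 1, or slbo nonmigratory replicate 1 or 3) and to as many as 16 (without WT migratory replicate 2, where 10.9% of all features were called lower), and there were 3 without WT nonmigratory replicate 1, slbo migratory replicate 2 or slbo migratory replicate 3. With quantile normalization the calls of RpLP2 (adjusted p = 0.105), RpS28b (adjusted p = 0.0713) and RpL37-1 (adjusted p = 0.202) were lost in limma and those of RpLP0-like and RpL24-like were not. With quantile normalization and without WT migratory replicate 2, added after the data were seen, RpLP0-like, RpL24-like, RpL39, RpS28b and RpS29 were called lower and RpL28 was called higher (adjusted p = 0.00863 with limma). In that fit 10.8% of all features were called lower.

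**Figure D4:**
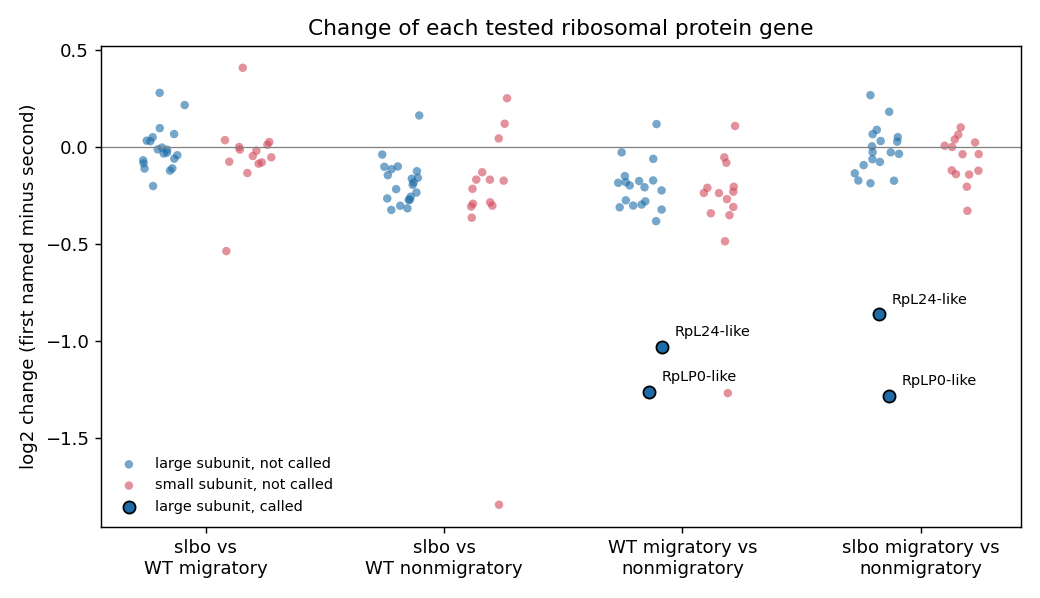
Log2 change of each of the 34 tested ribosomal protein genes in the 4 comparisons of 2 groups, large subunit in blue and small subunit in red, with called genes outlined and named. Most points lie within 0.4 of 0 and the 2 called genes lie near -1; the lowest uncalled points, -1.85 in slbo against WT nonmigratory cells and -1.27 in WT migratory against nonmigratory cells, are RpS28a, which is close to background.

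Comparing genotypes within a fraction called no ribosomal protein gene. In migratory cells 0 of 34 were called (lowest adjusted p = 0.333 with limma, 1 with an unadjusted p under 0.05), where 1.94% of all features were (1.14% higher and 0.802% lower). Of all 8978 features, 1175 had an unadjusted p under 0.05 there. The 37 genes had a median log2 difference of -0.02 between slbo and WT, -0.02 for each subunit, with 23 negative and 14 positive. RpLP2 was, by a narrow gap, the 1 tested gene lower in slbo without overlap, where 8.81% of all features were, and 0 were higher, where 9.48% were. With quantile normalization the direction turned: 0 were lower and 5 higher without overlap, against 9.81% and 8.02% of all features. The median of the 37 genes was then 0.03 with 22 positive, and that of all features was -0.03. When the arrays were centred on their medians instead, the median of all features in this comparison shifted to -0.11, and that of the ribosomal protein genes to -0.14, with 34 of 37 negative. Relative to that shift the genes' median was still within 0.03 of that of all features.

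In nonmigratory cells 0 of 34 were called (lowest adjusted p = 0.175 with limma, 13 with an unadjusted p under 0.05), where 0.668% of all features were (0.312% higher and 0.356% lower). Of all 8978 features, 826 had an unadjusted p under 0.05 there. Most ribosomal protein genes were nevertheless a little lower in slbo. The median was -0.19 over the 37 genes, -0.21 for large and -0.17 for small subunit genes, with 32 negative, and that of all features was 0.01. Of the 34 tested genes 20 were lower in slbo without overlap, 10 of each subunit, and 0 were higher, against 7.87% and 7.57% of all features. Since the genes also rise and fall together from array to array, these 20 are not 20 separate observations. With quantile normalization 5 were lower and 3 higher without overlap, against 7.34% and 7.60% of all features. The median was then -0.02, and the large (-0.04) and small (0.02) subunit medians had opposite signs. Most of the shift was thus not seen under that scaling. That scaling takes out much of a shift shared by the brightest genes, so it cannot decide whether the shift was present.

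RpS26, a small subunit protein at the exit of the messenger RNA channel, read 14056, 13347 and 14955 in slbo nonmigratory cells and 18687, 17565 and 18245 in WT nonmigratory cells. The groups did not overlap, and the log2 difference was -0.36 (adjusted p = 0.245 with limma). In migratory cells RpS26 read 12380.0, 15277 and 14852 in slbo and 13791, 17929 and 15004 in WT, with overlap (-0.13, adjusted p = 0.692). RpS7, whose human relative binds the p53 regulator MDM2, read 16070.5, 16239 and 16591 in slbo nonmigratory cells and 19939.6, 20959 and 19605 in WT nonmigratory cells (-0.31, adjusted p = 0.289 with limma). RpL3, a core protein near the site of peptide bond formation, read 15456, 14511 and 15835 in slbo nonmigratory cells and 19002, 17424 and 18909 in WT nonmigratory cells (-0.27, adjusted p = 0.432 with limma). RpS21 read 12363, 12706 and 13827 in slbo nonmigratory cells and 14853, 16108 and 14208 in WT nonmigratory cells (-0.22, adjusted p = 0.586 with limma). RpS26, RpS7, RpL3 and RpS21 all separated the nonmigratory genotypes without overlap and none passed the test across all features.

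RpL37A (145808_at, arm 2L), a large subunit protein distinct from RpL37-1 despite its name, went the other way. It read 14485, 16952 and 15617 in slbo migratory cells and 12257, 15135 and 11536 in WT migratory cells. In nonmigratory cells it read 14610.0, 14176 and 15371 in slbo and 15212, 12904 and 11536 in WT. The genotypes overlapped in both fractions, and the log2 difference between slbo and WT was 0.28 in migratory cells (adjusted p = 0.333 with limma) and 0.16 in nonmigratory cells (adjusted p = 0.762). With quantile normalization RpL37A was called higher in slbo in migratory cells (0.33, adjusted p = 0.041 with limma) and in nonmigratory cells (0.40, adjusted p = 0.0284). It was then also called higher averaged over fractions (0.37, adjusted p = 0.00137 with limma), the only averaged genotype call under that scaling, in place of the lower call of RpLP2. Without WT migratory replicate 2 as well, an alternative added after the data were seen, the migratory call was lost (adjusted p = 0.0555 with limma) and the other calls were not.

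RpS29 had the most positive difference between slbo and WT of the tested small subunit genes and was not called. Its signals were 437, 299.5 and 354 in slbo migratory cells and 217, 408 and 218 in WT migratory cells, with overlap (0.41, adjusted p = 0.553 with limma). They were 538, 398 and 435 in slbo nonmigratory cells and 349, 502 and 311 in WT nonmigratory cells (0.25, adjusted p = 0.844 with limma).

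The tissue-biased paralogues were mostly near background. An array's background was read from 23 control probe sets for sequences that flies do not carry, whose 95th percentile was 25.0 to 50.9. RpL10Aa, RpL22-like and RpS19b read between 1.2 and 37.6 over all arrays, and no level is drawn from them. RpL10Ab, the widely used partner of RpL10Aa, was a bright gene and read 10687 to 15051 over the 12 arrays. RpS10a, a germ line-biased copy, ran between 8.9 and 64.2, with the highest and the lowest array of WT nonmigratory cells at 64.2 and 10.5, and it was not called in any comparison. RpS5b, a copy that is enriched in the female germ line, was bright on every array. It read 6974, 6166 and 7060.4 in slbo migratory cells and 6194, 6197 and 6396 in slbo nonmigratory cells. In WT it read 7081, 7196 and 6189 in migratory cells and 7198, 7291 and 6709 in nonmigratory cells, and its group means spanned only 0.17 on the log2 scale, the smallest span but 1 of the 37 genes.

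RpS28a, the second copy of RpS28b, was above the testing percentile on 4 arrays, all WT. It read 12.8, 19.7 and 10.2 in slbo nonmigratory cells and 74.7, 53.6 and 83.1 in WT nonmigratory cells. In migratory cells it read 14.0, 18.9 and 11.2 in slbo and 71.2, 12.3 and 13.3 in WT. All 6 slbo arrays were thus at background, as were 2 of the 3 WT migratory arrays. With the slbo signals raised to the background level, the nonmigratory group means of RpS28a still differed 1.82-fold, lower in slbo. That bound takes no account of the spread between arrays. RpS28a entered the test only through WT arrays, where it was high, and the difference did not pass it (adjusted p = 0.175 with limma). RpL37-2, a second copy of RpL37-1, read 734, 586 and 587 in slbo migratory cells and 582, 502 and 491 in slbo nonmigratory cells. The WT signals were 824, 504 and 652 in migratory cells and 569, 753 and 492 in nonmigratory cells. It was higher in slbo migratory cells without overlap (0.27, adjusted p = 0.437 with limma), and the WT fractions overlapped.

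The change between fractions was not called different between the genotypes for any gene. The interaction, the slbo difference between fractions minus the WT difference, was called for 0 of 8978 features (603 with an unadjusted p under 0.05), so 0% is its background, and for 0 of the 34 ribosomal protein genes (4 with an unadjusted p under 0.05). It was positive for 32 of the 37 genes with a median of 0.15, 0.13 for large and 0.17 for small subunit genes, and its median over all features was 0.00. The lowest p belonged to RpLP0 (0.35, SE 0.144, adjusted p = 0.673 with limma). RpL17, a protein at the mouth of the exit tunnel, followed with 0.35 (adjusted p = 0.708). RpL17 read 14806, 17190.5 and 16976 in slbo migratory cells and 15246, 14321 and 17223 in slbo nonmigratory cells, with overlap. Its WT signals were 14224, 17011 and 16750.3 in migratory cells and 18461, 20125 and 19534 in nonmigratory cells, with none. RpS27A, which is made as a fusion to ubiquitin, had the lowest value of any bright gene (-0.12, and 26 of 27 were positive). It read 8297, 8532 and 9163 in slbo migratory cells, 10274, 8990.5 and 10744 in slbo nonmigratory cells, 8025, 10132 and 9401 in WT migratory cells, and 10412, 9292 and 9343 in WT nonmigratory cells. With quantile normalization the median interaction of the 37 genes was 0.03.

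Most bright genes rose and fell together from array to array. Over the 351 pairs of bright genes the median r of their deviations over the 12 arrays was 0.818, with a range of -0.271 to 0.978. Of the 27, 23 had an r between 0.804 and 0.979 with the median of the other bright genes. The other 4 were RpS27A (0.594), RpS5b (0.42), RpL37A (0.076) and RpL28 (0.073). RpL28 read 6937, 8634 and 8519 in slbo migratory cells, 6605, 6782 and 7791 in slbo nonmigratory cells, 8499, 6593 and 7423 in WT migratory cells, and 8256, 7963 and 7178 in WT nonmigratory cells. Its lowest WT migratory array was replicate 2, the array on which most other bright genes were highest in that group. Points of these correlations share an array's scaling, so they describe the arrays as well as the genes.

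Other genes of ribosome production had larger differences between the fractions than most ribosomal protein genes. The lists were not matched for brightness, and the bright ribosomal protein genes lie near the top of each array's range. Whether that brightness narrowed their differences was not tested. In the ribosome assembly list, 11 of 20 tested genes were called lower in slbo migratory than in slbo nonmigratory cells (5.20% of all features) and 13 of 20 in WT (4.92% of all features), with 0 higher, and the list's median log2 difference was -0.75 in slbo and -1.05 in WT. Averaged over genotypes, where 9.89% of all features were called lower, 13 of 20 were. NHP2, a protein of the small nucleolar ribonucleoproteins that guide pseudouridylation, had an averaged difference of -1.43 (adjusted p = 2.58e-06 with limma). Fib (fibrillarin), which methylates ribosomal RNA, was lower by -1.30 (adjusted p = 2.66e-06), and bys (bystin), a small subunit assembly factor, by -0.997 (adjusted p = 4.86e-05). The list also holds Mat1, pes and eRF1, which are not assembly factors and were entered by mistake, and none of these 3 was called. All 4 RNA polymerase I genes were called lower in migratory cells on average, 2 were called within slbo and 1 within WT. Polr1A, the largest subunit of the enzyme, was lower by -1.14 (adjusted p = 7.11e-06 with limma) and Tif-IA, its initiation factor, by -0.58 (adjusted p = 0.0243). The lists were written with earlier results of these data known, so their direction is no independent evidence.

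Genes that work beside the ribosome varied by list. Among all features, 5.20% were called lower in slbo migratory cells, 4.92% in WT migratory cells and 9.89% on average. Of 21 translation initiation factors, 12 were called lower in slbo migratory cells and 5 in WT migratory cells (medians -0.48 and -0.33), 15 on average and 0 higher. Subunits of eIF3, the scaffold that brings the small subunit to the messenger RNA, led them on average, with eIF3h at -0.57 (adjusted p = 0.000174 with limma), eIF3b at -0.54 and eIF3l at -0.62. Of 64 mitochondrial ribosomal proteins, which serve the separate ribosome of mitochondria, 18 were called lower in slbo and 27 in WT migratory cells (medians -0.50 and -0.53), 46 on average and 0 higher. mRpL20 was lower by -1.27 on average (adjusted p = 9.75e-05 with limma) and mRpL9 by -0.73. Of 8 nascent chain and signal recognition genes, 2 were called lower on average. They were Nacalpha (-1.05, adjusted p = 1.55e-05 with limma) and bic (-0.59), the subunits of the complex that meets new chains at the tunnel exit, and the list's median was -0.29 in slbo, 0.03 in WT and -0.09 on average. Of 4 elongation factors, eEF1delta (-0.35) and eEF1gamma (-0.28) were called lower on average, and the list's median was -0.21 in slbo, -0.15 in WT and -0.22 on average. The median of the 37 ribosomal protein genes was -0.14 for the large and -0.18 for the small subunit, and that of all features was 0.03. Rack1, a small subunit protein named outside the RpL and RpS scheme, was 0.01 in slbo (adjusted p = 0.981) and -0.28 in WT (adjusted p = 0.125) on the same scale. With quantile normalization the assembly list still had 13 genes called lower on average and the mitochondrial list 50, and without WT migratory replicate 2 they had 14 and 45.

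**Figure D5:**
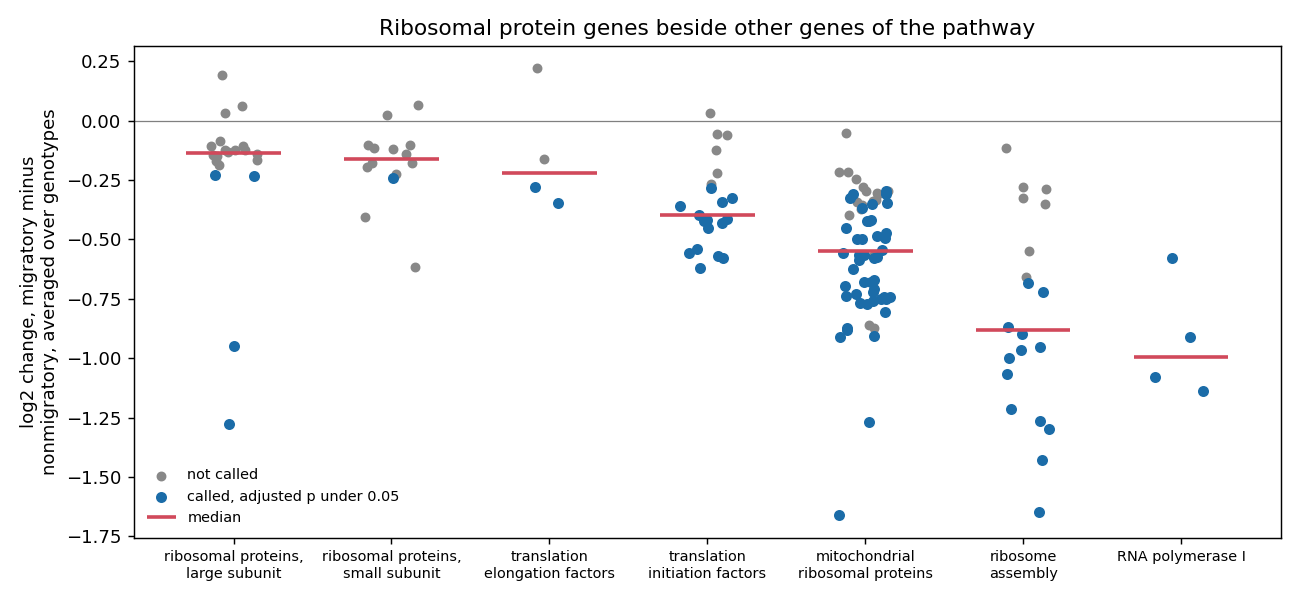
Log2 change in migratory against nonmigratory cells, averaged over genotypes, of each tested gene in 7 lists, with called genes in blue, the others in grey and the median of each list as a red line. The medians run between -0.14 for large subunit ribosomal proteins and -0.99 for RNA polymerase I, and the 2 lowest large subunit points are RpLP0-like and RpL24-like. The lists were not matched for brightness.

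Between genotypes these lists gave few calls. In migratory cells mRpL21, 1 of 64 mitochondrial ribosomal proteins, was lower in slbo (-1.36, adjusted p = 0.0147 with limma), where 0.802% of all features were called lower. No other gene of the lists on ribosome assembly, RNA polymerase I, initiation, elongation, nascent chains or mitochondrial ribosomal proteins was called within a fraction. Averaged over fractions, 2 of 21 initiation factors (eIF2beta and pAbp) and 2 of 64 mitochondrial proteins (mRpL48 and mRpL21) were called lower in slbo. Of all features 1.51% were called lower in that comparison.

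Several sample properties moved with the groups, and their part in these results was not tested. The ratio of the 5' to the 3' probe set of GAPDH, a sign of RNA integrity and of how far labelling ran, was 0.0932 to 0.150 in slbo migratory and 0.134 to 0.184 in slbo nonmigratory cells. It was 0.0783 to 0.0947 in WT migratory and 0.1582 to 0.1997 in WT nonmigratory cells, where it separated the fractions, as it did not in slbo. The same ratio for eIF4A was 0.0861 to 0.1563 in slbo migratory and 0.163 to 0.2264 in slbo nonmigratory cells, and for actin 0.1646 to 0.3047 in slbo migratory and 0.3075 to 0.394 in slbo nonmigratory cells, so both separated the slbo fractions. In WT both overlapped, at 0.1225 to 0.195 in migratory and 0.1413 to 0.1688 in nonmigratory cells for eIF4A, and at 0.23 to 0.384 in migratory and 0.2296 to 0.3326 in nonmigratory cells for actin. The summed signal of 13 gut markers was 21474 to 31205 in slbo migratory, 11205 to 15530 in slbo nonmigratory, 2724 to 7040 in WT migratory and 2433 to 5016 in WT nonmigratory cells, with all 13 above background on average in slbo migratory cells. That of 7 hemocyte and fat body markers was 1826 to 2251 and 3902 to 4560 in slbo migratory and nonmigratory cells, and 1441 to 1533 and 2584 to 4370 in WT migratory and nonmigratory cells. The median log2 difference between the fractions over the 5 tested markers of that list was 0.27 in slbo and 0.00 in WT. The lower sums in migratory cells were thus not shared by the list. Averaged over genotypes, 1 of these 5 was called lower in migratory cells (vkg, a collagen IV chain) and 1 higher. Of all features 9.89% were called lower and 8.04% higher in that comparison. The summed signal of 12 germ line markers was 1649 to 2105 in slbo migratory, 1532 to 1944 in slbo nonmigratory, 1003 to 1953 in WT migratory and 968 to 1340 in WT nonmigratory cells. Of the 11 tested, 5 were called higher in slbo on average over fractions, where 1.94% of all features were. The 7 muscle markers summed to 3616 to 4559 in slbo migratory, 2108 to 3705 in slbo nonmigratory, 2604 to 4554 in WT migratory and 1424 to 3573 in WT nonmigratory cells. Averaged over genotypes, 1 of the 6 tested was called higher in migratory cells, where 8.04% of all features were. The 12 follicle cell markers, the labelled tissue's own, summed to 99830.2 to 122988 in slbo migratory, 89887 to 100902 in slbo nonmigratory, 108544 to 130672 in WT migratory and 115388 to 122679 in WT nonmigratory cells, with 10 or 11 above background in each group. Of the 11 tested, 4 were called lower in slbo on average over fractions (1.51% of all features). The list includes slbo itself, the gene whose alleles define the genotypes, so that count does not measure follicle cell content alone. Averaged over genotypes, 3 of the 11 were called higher in migratory cells (8.04% of all features).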

How the data were processed

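Total RNA of 12 samples was measured on Affymetrix arrays. The deposited intensity values are linear MAS5 signals, per the submitters' processing notes, which name MAS5 without settings, and every array had a 2% trimmed mean near 150.03. The reference genome, array annotation build and RNA protocol are not given in the sources used here. Gene names came from the platform annotation: 12442 probe sets named 1 gene, 327 several and 1197 none, and 44 control probe sets were left out. The brightest probe set stood for a gene, and unnamed or shared probe sets were kept as features of their own. Signals were turned into log2(signal + 5% of the trimmed mean) and fitted with limma 3.58.1 in R 4.3.3 (intensity trend, 4 group means, 7 comparisons), after a test on simulated data. Tables were made with Python 3.11.15, pandas 2.3.3 and numpy 2.4.6. A bound against background used the control probe sets' 95th percentile. The named genes were up to 6 called genes per direction and comparison (or the 2 lowest p), the paralogues and stalk proteins, and 5 more with wide ranges of group means. Of each other list, up to 3 called genes were named by lowest p. RpL28, RpL39, Rack1, Tif-IA, vkg and the genes of lists called between genotypes were named after their values were seen. The genes and lists were chosen with earlier results of these data known. The fit was repeated with quantile-normalized or median-centred arrays, all features kept, constants of 1% and 20%, a mean over a gene's probe sets, a constant prior variance, the replicate number as a block, and each array dropped in turn.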

Additional observations from a re-analysis of the deposited data

How the results depend on the processing

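The calls of RpLP0-like in both genotypes held under the 8 processing alternatives and the 12 fits that each left out 1 array, and under the added one below, with adjusted p of 0.00041 to 0.0225 in slbo and 0.000737 to 0.017 in WT (limma). With quantile normalization, 1 gene (RpL37A) was called in slbo against WT in migratory and 1 in nonmigratory cells, and 2 were called in the averaged fractions. The medians of large and small subunit genes then became -0.0406 and 0.0217 (slbo against WT, nonmigratory), -0.0614 and -0.0354 (WT fractions), -0.0012 and -0.0202 (averaged fractions) and 0.0048 and 0.0178 (averaged genotypes), and the small subunit interaction 0.0202. Median centring gave -0.1432 and -0.1408 for slbo against WT in migratory cells. The averaged fractions had 2 calls with median centring, 3 without the low signal filter and 2 without the intensity trend, and the slbo fractions 1 call without that trend (RpL24-like at adjusted p = 0.0559). The call of RpLP2 between genotypes was lost (0 calls) without the filter, with a 1% constant, without the trend and with the replicate block. Leaving out 1 array at a time gave 2 to 18 calls in the WT fractions, 1 to 2 in the slbo fractions, 2 to 16 in the averaged fractions and 0 to 1 in the averaged genotypes, and a small subunit interaction of 0.112 to 0.2827. The highest of these, 18, 16 and 0.2827, came without WT migratory replicate 2. Calls over all features also moved in these fits. They ran from 451 to 962 in the WT fractions, 373 to 967 in the slbo fractions, 1285 to 1784 in the averaged fractions and 209 to 305 in the averaged genotypes. The interaction of RpS10a, near background, changed sign over these fits (-0.7646 to 0.5336, adjusted p = 0.948 or more where it did). Without that array and with quantile normalization, added after the data were seen, slbo against WT nonmigratory had 1 call and medians of -0.0406 and 0.0217, the WT fractions medians of -0.0586 and -0.0422, the averaged fractions -0.0022 and -0.033, the averaged genotypes -0.0022 and 0.0345, the small subunit interaction 0.0557 and that of RpS10a 0.1468. The cause of these changes was not tested. Arrays with the same replicate number did not vary together (r of -0.076 to 0.083), so the numbers were not taken to pair samples, and the replicate block gave 2 calls in each genotype's fractions, 4 in the averaged fractions and 0 in the averaged genotypes.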
